A study of Mus musculus with 6 samples.

Results

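Alveolar type 1 (AT1) genes are genes whose transcripts mark the thin, flat cells that line most of the gas-exchange surface of the lung. The 8 genes described here, *Aqp5*, *Hopx*, *Pdpn*, *Rtkn2*, *Akap5*, *Clic5*, *Emp2* and *Gprc5a*, were chosen by name as AT1 markers, and all 8 were found among the 54532 genes of the count table. They were measured by RNA sequencing of perfused whole lungs from 3 WT and 3 *ISM1*-/- mice aged 2 months, with 1 library per mouse. Both genotypes were C57BL/6J and neither had received allergen. WT mice were bought and *ISM1*-/- mice were bred in-house, so the source of the animals and the genotype cannot be told apart. The labels call the second genotype ISM1-KO, and the comparison asks how the resting lung transcriptome differs when the secreted protein isthmin-1 is removed.

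AT1 cells share a basement membrane with the capillary endothelium, and gases cross both layers. They arise from the same embryonic progenitors as the surfactant-making alveolar type 2 (AT2) cells, and in the adult lung AT2 cells give rise to AT1 cells after injury. The transcription factor NKX2-1 and the Hippo pathway effectors YAP and TAZ, which act on DNA through TEAD factors, are needed to keep AT1 identity. In bulk tissue, fewer cells of a type and less RNA per cell cannot be told apart.

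The 6 libraries held between 37606133 and 42345042 counts, and 18689 genes reached 0.5 CPM, the counts scaled to a common library size, in at least 1 library and were tested. No library repeated another, since the chi-square per degree of freedom was at least 5.45 for every pair. The targeted gene *Ism1* stood at 78.9 ± 2.88 CPM in WT and 69.1 ± 5.72 CPM in *ISM1*-/- lungs (SD, n = 3), which was 87.6% of WT (log2 fold change -0.19, SE 0.0709, adjusted p = 0.217 by edgeR). Transcript of the targeted gene was therefore still counted in the libraries labelled *ISM1*-/-, and every direction below rests on the labels.

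The promoters of these genes differ widely in their content of CpG, the dinucleotide that carries most DNA methylation in mammals. RefSeq windows on GRCm38.p6 were matched for 6 of the 8 genes, giving 7 windows of 250 bases before a transcription start. Over all 32851 windows the median was 6 CpG and 52.4% GC. The 3 windows below are shown because they run from a CpG-poor to a CpG-rich start among genes whose transcripts moved together across the lungs. Capitals mark each CpG. *Hopx* has a further window (chr5:77095268-77095517, minus strand), with 18 CpG and 57.6% GC, that is not shown. The *Pdpn* window (chr4:143299565-143299814, minus strand) has 2 CpG and 43.2% GC, the *Hopx* window shown (chr5:77115124-77115373, minus strand) has 8 CpG and 52.4% GC, and that of *Akap5* (chr12:76324641-76324890, plus strand) has 20 CpG and 70% GC.
Pdpn: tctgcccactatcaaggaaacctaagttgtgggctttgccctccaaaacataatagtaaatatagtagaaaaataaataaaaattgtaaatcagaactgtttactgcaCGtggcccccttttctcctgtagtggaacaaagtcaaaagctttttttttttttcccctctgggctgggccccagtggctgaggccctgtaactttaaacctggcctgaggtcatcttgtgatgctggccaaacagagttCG
Hopx: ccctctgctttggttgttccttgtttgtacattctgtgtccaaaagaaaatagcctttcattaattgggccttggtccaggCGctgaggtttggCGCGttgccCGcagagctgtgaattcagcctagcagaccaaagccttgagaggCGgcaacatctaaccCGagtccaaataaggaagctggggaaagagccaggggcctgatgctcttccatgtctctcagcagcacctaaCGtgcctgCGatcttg
Akap5: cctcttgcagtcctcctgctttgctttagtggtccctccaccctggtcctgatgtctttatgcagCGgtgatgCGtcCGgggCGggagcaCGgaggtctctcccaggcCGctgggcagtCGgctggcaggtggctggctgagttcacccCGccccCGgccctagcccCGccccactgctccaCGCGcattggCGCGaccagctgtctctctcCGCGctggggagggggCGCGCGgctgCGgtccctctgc
The most CpG-rich window was that of *Aqp5*, with 38 CpG and 78.4% GC. The TEAD core GGAATG, searched on both strands as GGAATG and CATTCC, was in 0 of the 7 windows and in 12.6% of all windows. The NKX2-1 core CAAGTG, searched as CAAGTG and CACTTG, overlaps the general E-box CANNTG and was in 0 of the 7 windows and in 11.6% of all. These counts describe the letters of short windows, and enhancers were not searched.

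All 8 transcripts were abundant in every lung. Levels are compared between genes in FPKM, in which fragments are divided by library size and by a gene length. *Hopx* was highest at a mean of 588 FPKM over the 6 libraries, followed by *Emp2* at 341, *Clic5* at 290, *Gprc5a* at 272, *Aqp5* at 230, *Akap5* at 125, *Pdpn* at 114 and *Rtkn2* at 107 FPKM. The 8 genes stood between the 94.8 and the 99.6 percentile of the tested genes. In FPKM, *Hopx*, *Emp2*, *Aqp5* and *Akap5* kept the same place in the order in all 6 libraries. *Clic5* and *Gprc5a* exchanged places between libraries and did not differ beyond their spread in WT, at 261.6 ± 37.5 and 263.7 ± 47.5 FPKM (SD, n = 3). *Pdpn* was above *Rtkn2* in all 3 WT lungs and below it in all 3 *ISM1*-/- lungs. Several places in the order depend on the gene length used. Per kilobase of the length listed in the count table, *Gprc5a* came next after *Hopx* at a mean of 272 CPM per kilobase, above *Emp2* at 172 and *Clic5* at 151, while *Hopx* remained the highest. On that scale *Rtkn2* stayed below *Pdpn*, at 49.7 against 77.6 CPM per kilobase in WT and 67.6 against 83.8 in *ISM1*-/- lungs.

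Of the 8 genes, 1 differed between genotypes past the threshold. *Rtkn2* rose by 36.1% in the lungs labelled *ISM1*-/-, and the other 7 were not called. Across all genes tested, 4.72% were called at an adjusted p under 0.1, 1.38% as higher and 3.34% as lower. Among the 2416 genes averaging 100 CPM or more, 3.39% were called and 1.99% were called as higher. The median log2 fold change of the 8 genes was 0.14, beside 0.0043 for all genes tested and 0.035 for genes of at least 100 CPM.

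**Figure D1:**
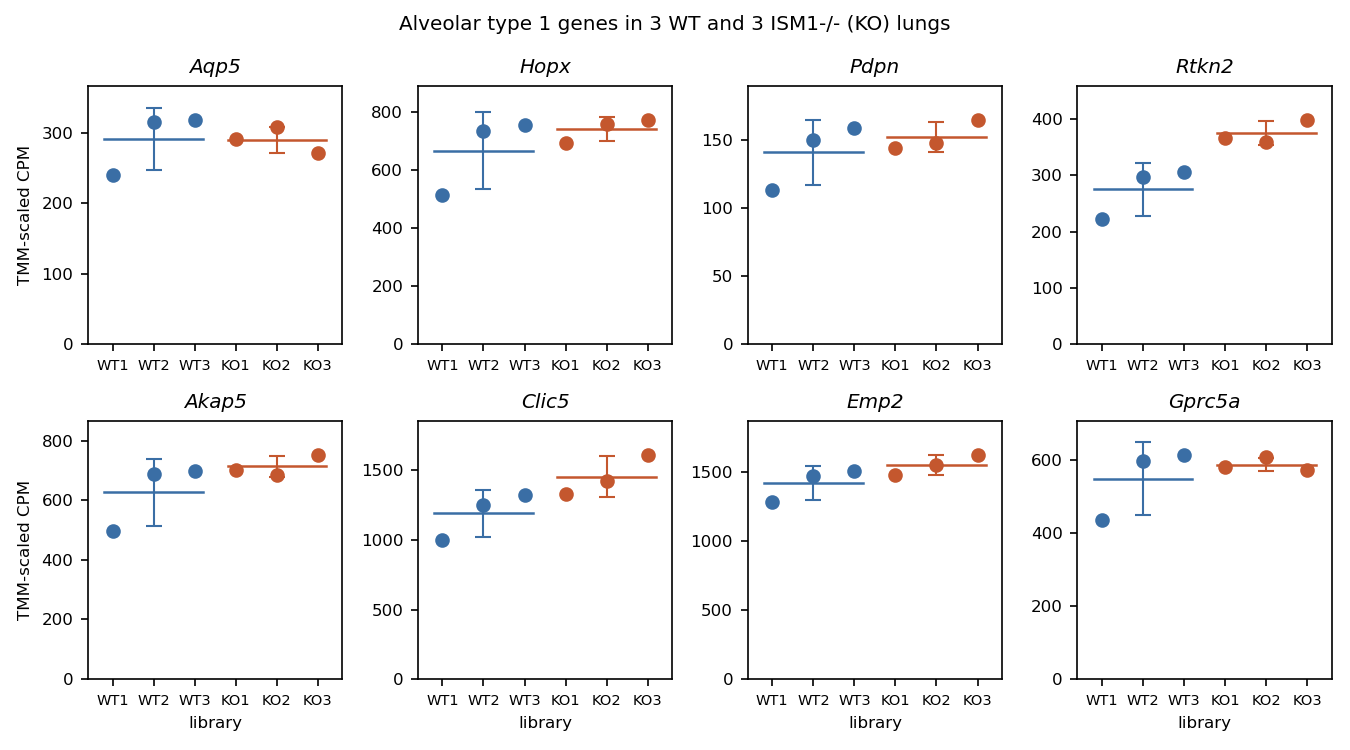
TMM-scaled CPM of each gene (vertical axis, from 0) in the 6 libraries, with WT in blue, *ISM1*-/- in red, a line at each group mean and bars of 1 SD (n = 3). The 3 *ISM1*-/- points lie above all 3 WT points for *Rtkn2* and *Clic5*, and the first WT point is the lowest in all 8 panels.

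*Rtkn2* encodes rhotekin 2, a scaffold protein, and lies on chromosome 10 from 67979570 to 68059740 (GRCm38, plus strand). It read 221.7, 298.0 and 306.8 CPM in the WT lungs and 367.4, 358.7 and 399.1 CPM in the *ISM1*-/- lungs. The groups did not overlap, and the lowest *ISM1*-/- lung was well above the highest WT lung. The means were 275.5 ± 46.8 and 375.1 ± 21.3 CPM (SD, n = 3), with a log2 fold change of 0.45 (SE 0.110, 95% interval 0.20 to 0.69, adjusted p = 0.0715 by edgeR). The call was kept without WT replicate 1 (log2 fold change 0.31, adjusted p = 0.0627) and without WT replicate 3 (adjusted p = 0.0922). It was lost without WT replicate 2 (adjusted p = 0.137) and without *ISM1*-/- replicate 1 (0.175), replicate 2 (0.158) or replicate 3 (0.117), each by edgeR. The estimate stayed between 0.31 and 0.53 on the log2 scale in these fits, and DESeq2, which called 6.88% of all genes, gave an adjusted p of 0.00186. An antisense gene, *Gm16212*, overlaps *Rtkn2* and holds counts equal to 0.654% of those of *Rtkn2*.

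*Clic5* encodes a member of the chloride intracellular channel family that is tied to the actin cortex through ezrin, and lies on chromosome 17 from 44188584 to 44280172 (plus strand). It read 998.5, 1249 and 1325 CPM in WT and 1331, 1424 and 1615 CPM in *ISM1*-/- lungs. The groups did not overlap, though the gap between WT replicate 3 and *ISM1*-/- replicate 1 was small. The mean went from 1191 ± 171 to 1457 ± 144.5 CPM (SD, n = 3), with a log2 fold change of 0.29 (SE 0.108, adjusted p = 0.217 by edgeR), which did not pass the threshold. DESeq2 put it past the threshold (adjusted p = 0.0755), and without WT replicate 1 the log2 fold change was 0.18 (adjusted p = 0.384 by edgeR). *Rtkn2* and *Clic5* were the 2 genes of the 8 whose genotypes did not overlap, a state shared by 21.6% of all genes tested (9.33% as higher) and 21.8% of those averaging 100 CPM or more. For each the exact two-sided permutation p was 0.1, the smallest that 3 against 3 allows.

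The other membrane proteins overlapped between genotypes. *Aqp5*, the water channel of the AT1 apical membrane (chromosome 15, 99590782 to 99594829, plus strand), read 240.7, 315.6 and 319.0 CPM in WT and 290.9, 308.2 and 271.7 CPM in *ISM1*-/- lungs. The means were nearly equal, at 291.7 ± 44.2 and 290.3 ± 18.3 CPM (SD, n = 3), and the 95% interval of the log2 fold change ran from -0.24 to 0.22. *Aqp5* was also the only one of the 8 with a fitted fold change below 0, at -0.0074.

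*Pdpn*, podoplanin, is a mucin-like surface glycoprotein also found on lymphatic endothelium and mesothelium (chromosome 4, 143267431 to 143299564, minus strand). It read 113.6, 150.3 and 159.0 CPM in WT and 143.9, 147.9 and 165.0 CPM in *ISM1*-/- lungs, and its log2 fold change was 0.11 (95% interval -0.14 to 0.36). Markers of its other sources were measured beside it: the summed level of the lymphatic list was 394 to 465 CPM in WT and 349 to 416 CPM in *ISM1*-/- lungs, and that of the mesothelial list 229 to 255 and 238 to 327 CPM. Most of the lymphatic sum was 1 gene, *Lyve1*, at 257 to 332 CPM in WT and 232 to 286 CPM in *ISM1*-/- lungs. The part of lymphatic and mesothelial cells in the *Pdpn* level was not tested.

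*Emp2*, a tetraspan protein of the PMP22 family (chromosome 16, 10281749 to 10313968, minus strand), read 1279, 1472 and 1504 CPM in WT and 1477, 1550 and 1624 CPM in *ISM1*-/- lungs. Its log2 fold change was 0.13 (SE 0.0750, 95% interval -0.039 to 0.30). *Gprc5a*, an orphan receptor induced by retinoic acid (chromosome 6, 135065651 to 135084709, plus strand), read 434.4, 596.2 and 614.1 CPM in WT and 580.4, 607.3 and 572.5 CPM in *ISM1*-/- lungs. Its 3 *ISM1*-/- lungs fell within the WT range, and the log2 fold change was 0.098 (95% interval -0.16 to 0.35).

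Inside the cell, *Akap5* encodes an anchor that holds protein kinase A and calcineurin near the membrane (chromosome 12, 76324891 to 76334153, plus strand). It read 497.0, 687.0 and 696.5 CPM in WT and 701.0, 685.3 and 753.0 CPM in *ISM1*-/- lungs, with a log2 fold change of 0.19 (95% interval -0.071 to 0.44). *Hopx* encodes a small homeodomain protein that does not itself bind DNA (chromosome 5, 77086988 to 77115121, minus strand). It read 513.9, 733.3 and 754.0 CPM in WT and 693.1, 757.3 and 773.5 CPM in *ISM1*-/- lungs, with a log2 fold change of 0.15 (95% interval -0.13 to 0.43). The antisense gene *Hopxos* overlaps it with counts equal to 9.81% of those of *Hopx*, and the strand setting of the counting was not given in the sources used here, so reads of the pair may not be fully separated.

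A single WT lung set much of the spread in WT. WT replicate 1 was the lowest of the 6 libraries for all 8 genes, which was so for 28.5% of genes of at least 100 CPM. It stood at 69.1% (*Hopx*) to 86.0% (*Emp2*) of the mean of WT replicates 2 and 3. For 7 of the 8 genes it was at 80% or less, a level reached by 3.19% of genes of at least 100 CPM. This pattern was noticed in the data and is given as a description. The coefficient of variation of the 8 genes was 8.58% to 19.9% in WT and 3.11% to 9.92% in *ISM1*-/- lungs, while counting error at the smallest member count, 4283, is 1.53%.

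Without WT replicate 1 the median log2 fold change of the 8 genes fell to 0.02, and the share of all genes called was 3.62%, with 1.31% as higher. The fold changes of *Hopx*, *Pdpn* and *Gprc5a* then changed sign, to -0.0028, -0.021 and -0.043, and that of *Aqp5* was -0.13. *Rtkn2* was the gene of the 8 that stayed called, and *Clic5*, *Emp2* and *Akap5* kept positive values of 0.18, 0.061 and 0.046.

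**Figure D2:**
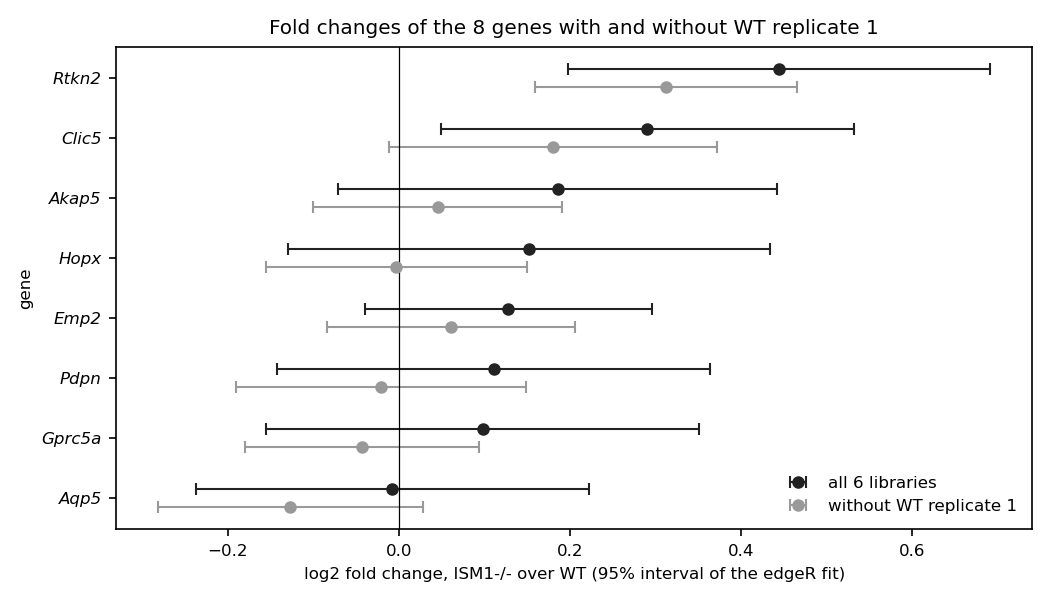
Log2 fold change of *ISM1*-/- over WT (horizontal axis) for each gene, with the 95% interval of the edgeR fit, from all 6 libraries in black and without WT replicate 1 in grey. The estimate of every gene moved toward lower values without that lung, and *Rtkn2* kept an interval above 0 in both fits.

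The same lung was low for other AT1 genes but not for AT2 genes. In a wider list of 19 AT1 genes, WT replicate 1 was the lowest library for 18 and stood at a median of 73.3% of the other WT lungs, from 61.0% for the basement membrane collagen *Col4a3* to 96.5%. For 15 AT2 genes the median was 97.6%, from 81.3% to 108%. Club cell genes were at a median of 90.8%, ciliated cell genes at 88.1%, genes of the capillary aerocytes that face AT1 cells at 108% and general capillary genes at 104%. Over the AT2 list no gene was at 80% or less, against 12 of the 19 wider AT1 genes. Of 11 genes of the transitional state between AT2 and AT1 cells, 2 were at 80% or less. Their median was 92.4% and the lowest was at 53.1%. Among 12 regulators of AT1 identity 1 was at 80% or less, with a median of 93.8%. The 6 general epithelial genes had a median of 94.6%, from 82.9% to 102%.

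Heart muscle transcripts were high in that lung. The summed level of 10 cardiac markers was 1680 CPM in WT replicate 1, 554 and 659 CPM in the other WT lungs and 302, 418 and 585 CPM in the *ISM1*-/- lungs, and all 10 cardiac genes stood at 198% or more of the other WT lungs there. The mitochondrial share of counts was 2.20% in that lung and 1.70% to 1.86% in the others. The part of these differences in the AT1 values was not tested.

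**Figure D3:**
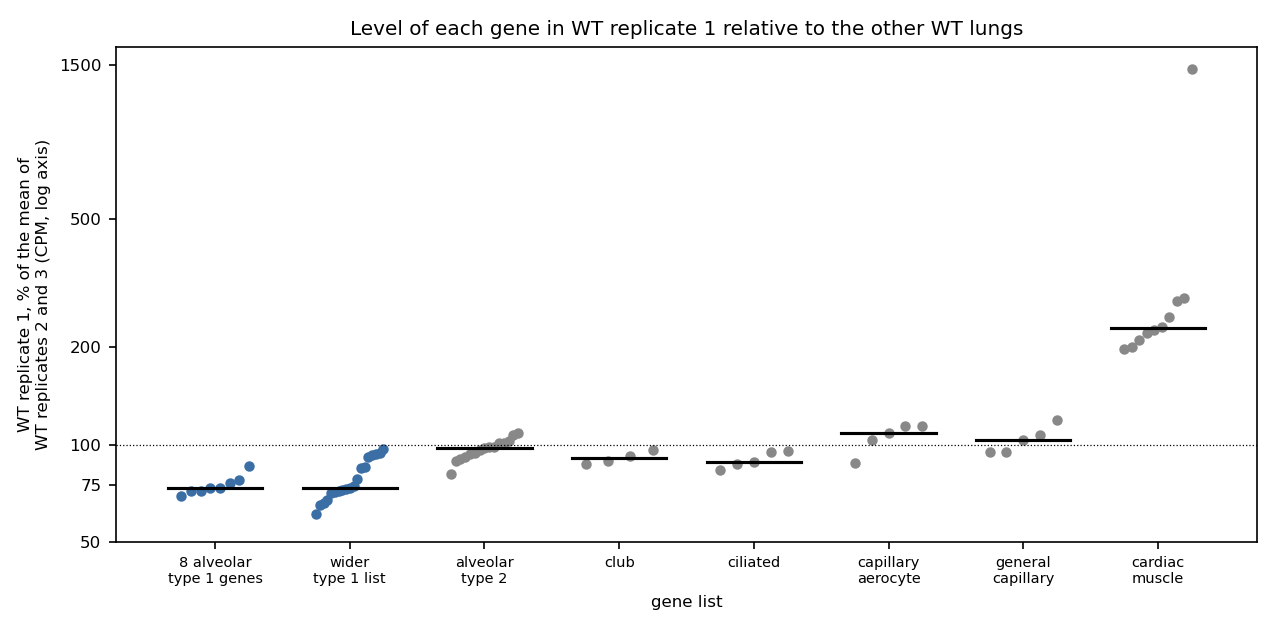
Level of each listed gene in WT replicate 1 as a percent of the mean of WT replicates 2 and 3 (log axis), 1 point per gene, with a line at each list's median. Both AT1 lists centre near 73%, the medians of the AT2, airway and capillary lists lie between 88.1% and 108%, and cardiac muscle genes lie at 198% and above.

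Because the AT1 genes moved together between lungs, each was also set against the others in its own library. The geometric mean of the 8 genes was 414, 545 and 562 CPM in WT and 551, 571 and 595 CPM in *ISM1*-/- lungs, and its ratio to the geometric mean of the AT2 list was 0.506, 0.648 and 0.659 in WT and 0.673, 0.721 and 0.729 in *ISM1*-/- lungs. All 3 *ISM1*-/- ratios were above the WT ratios, with WT replicate 3 and *ISM1*-/- replicate 1 close together. The AT2 geometric mean in the divisor was 817, 841 and 853 CPM in WT and 819, 793 and 816 CPM in *ISM1*-/- lungs. The ratio thus moves with both lists, and no share over all genes was computed for it.

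Relative to the geometric mean of the other 7 genes, *Rtkn2* stood at 0.4902, 0.5014 and 0.5003 in WT and at 0.629, 0.587 and 0.634 in *ISM1*-/- lungs. WT replicate 1 was not apart on this scale, and the mean log2 difference was 0.31. *Clic5* stood at 2.74, 2.58 and 2.66 in WT and at 2.74, 2.84 and 3.13 in *ISM1*-/- lungs, a log2 difference of 0.12 with WT replicate 1 just below *ISM1*-/- replicate 1. *Aqp5* went the other way, from 0.538, 0.535 and 0.523 in WT to 0.482, 0.494 and 0.408 in *ISM1*-/- lungs, a log2 difference of -0.21. Its own mean was nearly equal, at 291.7 CPM in WT and 290.3 CPM in *ISM1*-/- lungs, with WT replicate 1 low at 240.7 CPM. The *ISM1*-/- lungs, at 290.9, 308.2 and 271.7 CPM, were each below WT replicates 2 and 3, at 315.6 and 319.0 CPM. Without WT replicate 1 the *Aqp5* log2 fold change was -0.13. The parts of *Aqp5* itself and of the other 7 genes in this ratio difference were not tested.

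These 3 genes did not overlap between genotypes on this scale, and the other 5 did overlap. The scale was set up after the genes were seen to move together, and each gene is in the divisor of the others. *Rtkn2* and *Clic5*, for instance, are in that of *Aqp5*. The ratios are therefore a description, and no test is drawn from them. Divided by the mean of all 8, 23.9% of all genes did not overlap, 1.35% as higher and 22.6% as lower. That mean was itself lowest in a WT lung and higher in most *ISM1*-/- lungs, which moves other genes lower on this scale, and the 8 were each divided by the other 7, so these shares are no measure of how rare the 3 genes are.

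**Figure D4:**
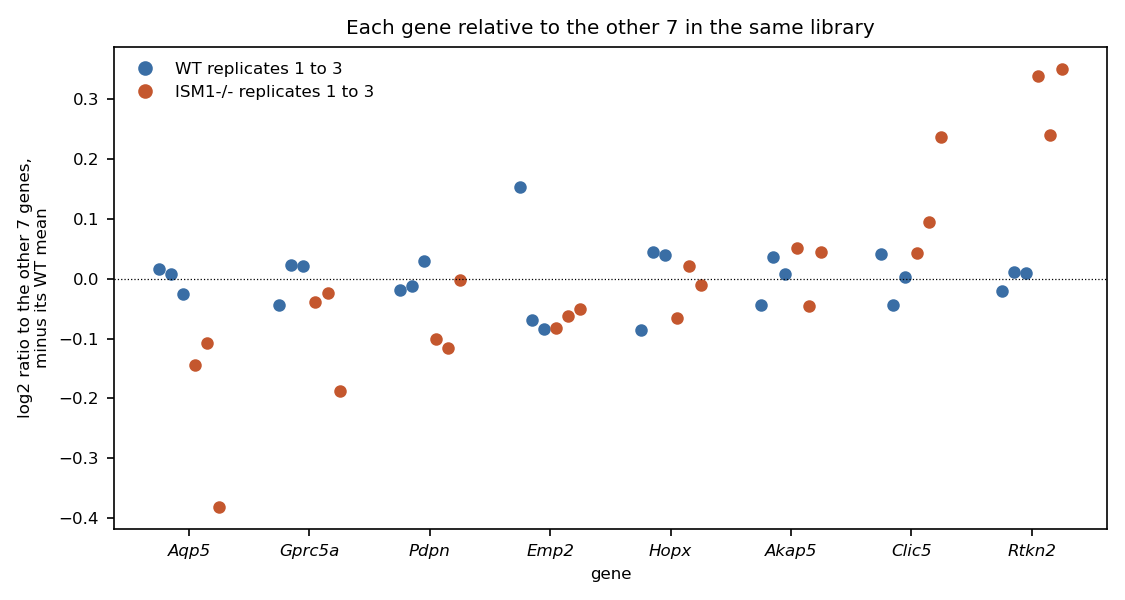
Log2 ratio of each gene to the geometric mean of the other 7 genes in the same library, minus its WT mean (vertical axis), for the 3 WT (blue) and 3 *ISM1*-/- (red) libraries. *Rtkn2* and *Clic5* lie higher in all *ISM1*-/- libraries and *Aqp5* lower, and the other 5 genes overlap. The mean CPM of *Aqp5* itself was nearly equal between genotypes over all 6 libraries, and its log2 fold change was -0.13 without WT replicate 1.

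None of the 19 wider AT1 genes was called by edgeR, though 17 had positive fold changes and 2 had an unadjusted p under 0.05. The median log2 fold change was 0.14, and 0.02 without WT replicate 1, the same medians as for the 8 genes. The largest were *Lmo7*, a junction-associated LIM domain protein, at 0.34 (adjusted p = 0.180, and 0.0414 by DESeq2, which called 1 of the 19), and *Lama3*, a laminin chain of the basement membrane, at 0.27 (adjusted p = 0.397).

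Of 12 regulators of AT1 identity, 0 were called by edgeR, 4 had an unadjusted p under 0.05 and DESeq2 called 3, *Klf5*, *Lats2* and *Wwtr1* (TAZ). *Klf5*, a transcription factor of alveolar epithelium, read 41.2, 52.7 and 52.6 CPM in WT and 38.1, 37.5 and 40.2 CPM in *ISM1*-/- lungs (log2 fold change -0.34, adjusted p = 0.104). Without WT replicate 1 it passed the threshold at -0.45 (adjusted p = 0.0251 by edgeR). *Klf5* passed in 2 of 6 fits with 1 library left out. Its log2 fold change in these fits ran from -0.45 to -0.28, with an adjusted p of up to 0.329 by edgeR. *Lats2*, a Hippo kinase that restrains YAP and TAZ, had a log2 fold change of 0.23 (adjusted p = 0.107). Of 6 YAP and TAZ target genes, 0 were called by edgeR or DESeq2 and 0 had an unadjusted p under 0.05, and the largest values were those of *Ajuba* at 0.20 and *Ccn2* at 0.19.

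Of 13 genes whose proteins work with the 8, 0 were called by edgeR and 2 had an unadjusted p under 0.05. DESeq2 called 1, *Msn*, whose edgeR log2 fold change was 0.19 (adjusted p = 0.159 by edgeR and 0.0519 by DESeq2). *Clec1b*, the platelet receptor for podoplanin, had the largest value at 0.58 from about 2 CPM in WT (adjusted p = 0.140 by edgeR).

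Among 18 paralogs, 16 were tested and 2 fell. *Clic6*, a relative of *Clic5*, read 61.1, 64.3 and 58.8 CPM in WT and 42.5, 41.2 and 44.4 CPM in *ISM1*-/- lungs, without overlap (log2 fold change -0.52, SE 0.0640, adjusted p = 0.00946 by edgeR). *Gprc5c*, a relative of *Gprc5a*, read 21.2, 19.9 and 18.2 CPM in WT and 14.8, 13.9 and 14.8 CPM in *ISM1*-/- lungs, also without overlap (log2 fold change -0.44, SE 0.0821, adjusted p = 0.0282 by edgeR). *Clic6* kept its call with any 1 library left out and *Gprc5c* in 4 of 6 such fits, losing it without WT replicate 2 (adjusted p = 0.124 by edgeR) and without *ISM1*-/- replicate 2 (0.120). Lists of airway cells moved with them: 3 of 4 club cell genes and 5 of 5 ciliated cell genes fell, with log2 fold changes of -0.51 for *Scgb1a1*, the club cell secretory protein, and -0.51 for *Foxj1*, the regulator of motile cilia. The 3 club cell calls numbered 3, 0 and 2 without WT replicates 1, 2 and 3 and 2, 1 and 3 without *ISM1*-/- replicates 1, 2 and 3, and the 5 ciliated cell calls numbered 3, 1 and 2 and then 2, 2 and 5. The ciliated gene *Tmem212* also lost its call with RLE size factors (adjusted p = 0.102 by edgeR). The part of airway cells in the values of the 2 paralogs was not tested.

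AT2 genes and genes of the transitional state between AT2 and AT1 cells were not called. Of 15 AT2 genes, 10 had negative fold changes, 2 had an unadjusted p under 0.05 and DESeq2 called 1, *Cxcl15*. The largest edgeR values were *Sftpb* at -0.20 (adjusted p = 0.223) and *Cxcl15* at -0.17 (adjusted p = 0.171). Of 11 transitional genes, 10 had negative fold changes, 2 had an unadjusted p under 0.05 and DESeq2 called 0. Largest by edgeR were *Areg* at -0.68 (adjusted p = 0.306) and *Sfn* at -0.31 (adjusted p = 0.159). *Areg* was low, at means of 6.27 CPM in WT and 3.92 CPM in *ISM1*-/- lungs, and its genotypes overlapped. Among 6 general epithelial genes, all 6 fold changes were negative (median -0.19), 5 had an unadjusted p under 0.05 and DESeq2 called 2. The largest value was that of *Tjp3* at -0.30 (adjusted p = 0.161 by edgeR and 0.0911 by DESeq2). The 1 gene called by edgeR was *Esrp1*, a splicing regulator (log2 fold change -0.26, adjusted p = 0.0546 by edgeR). With 1 library left out it kept this call only without *ISM1*-/- replicate 3, and the adjusted p of the other 5 fits was 0.111 to 0.192.

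The genes whose pattern over the 6 libraries was most like the mean of the 8 were *Col4a3* (Pearson r = 0.996), *Sema3e* (0.993), *Etohd2* (0.992), *Tom1l1* (0.990) and *Bend7* (0.987), from 15867 genes averaging 1 CPM or more. *Col4a3* and *Sema3e* belong to the wider AT1 list, 13 of whose 19 genes were among the 500 most alike. All 5 were lowest in WT replicate 1, at 61.0% to 89.1% of the other WT lungs, and the 6 points share that low lung. Among the 8 themselves, r with the mean of the other members ran from 0.684 for *Aqp5* to 0.989 for *Hopx*.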

How the data were processed

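RNA from perfused whole lungs was poly-A enriched, and strand-specific libraries were sequenced in pairs. The authors mapped reads to GRCm38 with STAR and deposited raw counts per gene and FPKM, which the authors obtained from the counts by library size and gene length. The counting program, annotation and strand setting were not given in the sources used here. The gene lengths implied by the deposited FPKM differ from those listed in the count table for 7 of the 8 genes.

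Counts were scaled by TMM in edgeR 4.0.16 (R 4.3.3), genes reaching 0.5 CPM in any 1 library were kept, and 3 WT were compared with 3 *ISM1*-/- libraries by the quasi-likelihood test, with Benjamini-Hochberg adjustment over all 18689 genes and calls at an adjusted p under 0.1. DESeq2 1.42.0 was an alternative. Printed CPM are TMM-scaled. The fit was tested on simulated data. Each library is a separate mouse. Same-numbered lungs did not deviate together (correlations -0.041, 0.031 and 0.0010).

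The genes and lists were chosen with earlier results of these data known. Named genes were the 8, *Ism1*, the 5 most alike, and from each list the called genes and the 2 of largest absolute fold change. Lists of other cell types are given mostly by counts, and 1 gene that this rule names is not reported here. *Wwtr1*, *Msn* and *Lyve1* were named after their values were seen. Promoters came from RefSeq (GRCm38.p6), with no window for *Rtkn2* or *Gprc5a*.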

Additional observations from a re-analysis of the deposited data

How the results depend on the processing

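Of the 8 genes, 1 was called (*Rtkn2*). DESeq2, no filter on low counts and the replicate block each gave 2, with *Clic5* added, while an adjusted p under 0.05 and a minimum 2-fold change each gave 0, and leaving out 1 library gave 0 to 1. The 0 wider AT1 genes became 1 with DESeq2, with no filter and with the replicate block, and the 0 AT2 genes became 1 with DESeq2 and with no filter. The 0 regulators and YAP and TAZ targets became 1 with library totals or protein-coding genes above a mean of 2 CPM, 2 with at least 3 libraries over the minimum, no filter, robust estimation or the replicate block, and 3 with DESeq2 (*Klf5*, *Lats2* and *Wwtr1*). Leaving out 1 library gave 0 to 2. The 0 transitional genes became 2 with no filter. The 2 partners and paralogs became 0 under a 2-fold minimum, 3 with DESeq2, no filter or the replicate block and 1 to 2 with 1 library left out. Calls over all genes numbered 882, against 150 to 1470 with 1 library left out (150 without WT replicate 2, 1470 without *ISM1*-/- replicate 3), 1285 with DESeq2, 1105 with the replicate block, 1632 with no filter, 455 at an adjusted p under 0.05 and 106 with a 2-fold minimum.

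The *Aqp5* log2 fold change of -0.0074 became 0.0024 with the replicate block, and with 1 library left out it ran from -0.13 to 0.062. Without WT replicate 1, *Hopx* (-0.0028), *Pdpn* (-0.021) and *Gprc5a* (-0.043) turned negative, and their highest values with 1 library left out were 0.25, 0.21 and 0.19. The lowest and highest medians of the 8 genes with 1 library left out were 0.02 and 0.23. Replicate numbers name different mice, so the block has no basis in the design. Where a fit shifted a call, the cause was not tested. With 3 lungs a group, exact permutation tests cannot go below 0.1.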

Other observations

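Lists of non-epithelial cells moved in both directions. All 6 adipocyte genes fell in the lungs labelled *ISM1*-/-, with a median log2 fold change of -1.80. DESeq2 called 5 of them and gave no adjusted p for *Lep*, and robust estimation called 3. Without WT replicates 1, 2 and 3 the calls numbered 5, 3 and 4, and without *ISM1*-/- replicates 1, 2 and 3 they numbered 3, 3 and 6. Of 6 leukocyte genes 2 rose, *Ptprc*, the pan-leukocyte surface phosphatase, by 0.40 (adjusted p = 0.0546 by edgeR) and *Cd79a*, a part of the B cell receptor, by 0.59 (adjusted p = 0.0856 by edgeR). *Ptprc* kept its call in 2 of 6 fits with 1 library left out (without WT replicate 1 and without *ISM1*-/- replicate 3) and *Cd79a* in 1 (without *ISM1*-/- replicate 3), and robust estimation lost *Cd79a* (adjusted p = 0.156). Of 5 mesothelial genes 1 was called as higher by edgeR, the uroplakin *Upk1b*, at 0.35 (adjusted p = 0.0817 by edgeR). That call was kept in 1 of 6 such fits (without *ISM1*-/- replicate 2), with an adjusted p of up to 0.266 by edgeR. All 5 mesothelial fold changes were positive and DESeq2 called 2. The largest was that of *Msln* at 0.44 (adjusted p = 0.104 by edgeR and 0.00709 by DESeq2). Of 10 cardiac genes 1 fell, *Myl7*, at -1.11 (adjusted p = 0.0970 by edgeR), and the cardiac level was highest in WT replicate 1. Without that lung *Myl7* stood at -0.66 (adjusted p = 0.168), and the call was kept only without *ISM1*-/- replicate 3 among the fits with 1 library left out. DESeq2 (adjusted p = 0.180), robust estimation (0.358), the replicate block (0.105) and protein-coding genes above a mean of 2 CPM (0.108) did not call it. Of the lymphatic, aerocyte and general capillary genes 0 were called by edgeR or DESeq2, and 1, *Plvap*, had an unadjusted p under 0.05.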
